A study of Mus musculus with 23 samples.

Results

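The heterotrimeric G protein gamma subunits with a probe set of their own were examined in CA3 of UBB+1 tg mice and wild-type control mice, with Gng4 as the member for which the family was picked. A gamma subunit is a small protein that stays bound to a beta subunit for life, and a prenyl lipid on its C terminus holds the pair at the membrane. After a receptor has activated the G protein, the released beta-gamma pair opens GIRK potassium channels, holds back voltage-gated calcium channels at the presynaptic terminal and acts on adenylyl cyclases and phospholipase C beta enzymes. In hippocampal neurons this is a main route by which Gi/o-coupled receptors dampen excitability and transmitter release.

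Of the 10 genes listed (Gng2, Gng3, Gng4, Gng5, Gng7, Gng8, Gng10, Gng11, Gng12 and Gng13), 9 had at least 1 probe set that names no other gene, with 16 such probe sets among 45136 in all (18192 genes had such a probe set). The MOE430A array held 10 of them, for 7 genes, among 22625 probe sets, and the MOE430B array held 6, for 5 genes, among 22511. Gng2 had 4 probe sets, Gng4 had 3, Gng12 and Gng13 had 2 each, and the other 5 genes had 1 each. All 3 probe sets that name Gng5, a broadly expressed member, also name its pseudogene Gng5-ps, so no value is given for it. In the RefSeq annotation the 10 genes lie on 9 chromosomes, with Gng11 and Gng12 both on chromosome 6. The family was picked because a Gng4 probe set ranked first by p on MOE430B, so its genotype difference is given below as a description, with no test.

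The UBB+1 tg mice were heterozygous for a transgene, kept on a C57BL/6J background and aged 18 months. They carry UBB+1, a frameshifted ubiquitin B that hampers the proteasome, under the neuronal CaMK2α promoter. Their controls were non-transgenic wild-type littermates of the same age. CA3 was cut by laser from cresyl violet-stained cryosections, and 5 ng of total RNA per animal was amplified in 2 rounds. MOE430A had 6 UBB+1 tg and 5 wild-type mice, and MOE430B had the same animals and 1 more wild-type mouse, so that each group had 6. Only 1 transgenic line was used, and a cut region holds glia and vessels beside the neurons that carry the transgene.

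Values are log2 RMA intensities, the brightness of a probe set after background correction and quantile normalization, and 1 unit is a doubling. They compare animals within a probe set and do not rank genes. Median intensity was 6.32 to 6.34 over the MOE430A arrays and 5.49 to 5.50 over the MOE430B arrays. The arrays fell into 3 sets by overall pattern, called low, middle and high by their mean signal of 3' over 5' control probes for Gapdh and beta-actin (as a log2 difference), a sign of how far the amplified RNA reaches towards the 5' end. On MOE430A the difference was 2.65 to 3.43 in the low set (1 UBB+1 tg and 2 wild-type mice), 4.44 to 4.62 in the middle set (4 and 2) and 6.05 to 6.10 in the high set (1 and 1). On MOE430B the sets held the same animals, with the added wild-type mouse in the middle set. Of the CA3 markers, Bok and Nectin3 averaged 10.87 and 9.94 on MOE430A in UBB+1 tg mice, against 10.97 and 9.49 in wild-type mice. On MOE430B, Grik4 and another Nectin3 probe set averaged 7.55 and 4.19 in UBB+1 tg mice, against 7.68 and 4.38 in wild-type mice. In limma, 0% of probe sets on either array were called at a false discovery rate of 10%, and 3.48% on MOE430A and 3.05% on MOE430B had an unadjusted p under 0.05.

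Gng4 encodes a gamma subunit enriched in brain. Its only MOE430B probe set, whose identifier ends in _s_at, the mark of probes shared by several transcripts, was at 8.83, 8.60, 8.54, 8.70, 8.34 and 8.44 in UBB+1 tg mice tg270, tg271, tg273, tg274, tg276 and tg277. In wild-type mice wt287, wt289, wt290, wt291, wt321 and wt331 it was at 7.44, 7.72, 7.30, 8.07, 7.64 and 7.74. Every UBB+1 tg mouse lay above every wild-type mouse, and the gap between the lowest UBB+1 tg mouse and the highest wild-type mouse was 0.27. The mean was 8.58 ± 0.18 in UBB+1 tg mice and 7.65 ± 0.27 in wild-type mice (SD, n = 6 each), a log2 fold change of 0.92 (SE 0.12) or 1.90-fold. A gap of any size with all UBB+1 tg mice on top was seen for 0.0622% of MOE430B probe sets (with all of them at the bottom, for 0.08%). Since the choice used this contrast, nothing is read from the count. The probe sets that followed in the order of p were those of Zdhhc23, with a log2 fold change of 0.58 (SE 0.13), and of Specc1, with 0.55 (SE 0.12).

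Since the genotypes did not overlap, the direction of this Gng4 difference is fixed within every array set, and the values are given for their size only. The genotype difference was 1.23 in the low set (1 mouse against 2), 0.69 in the middle set (4 against 3) and 1.11 in the high set (1 against 1). Blocked by array set it was 0.89 (SE 0.11). Among wild-type mice alone, the middle set was 0.44 above the low set, at means of 7.82 and 7.37.

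Gng4 was also read by 2 probe sets of MOE430A, which the choice did not use. Probe set 1417943_at was at 4.86, 5.19 and 5.52 in UBB+1 tg mice (lowest, median and highest), against 5.13, 5.04, 5.04, 4.86 and 4.95 in wild-type mice wt287, wt289, wt290, wt291 and wt321. Of the UBB+1 tg mice, 3 of 6 lay above all wild-type mice, and the groups overlapped. The means were 5.21 ± 0.23 (n = 6) and 5.01 ± 0.10 (n = 5), a log2 fold change of 0.20 (SE 0.11, 95% interval -0.04 to 0.45), and the probe set was dim, below the 25th percentile of the array. Probe set 1417944_at was at 6.27, 6.54 and 6.70 in UBB+1 tg mice (lowest, median and highest), against 6.66, 6.63, 6.43, 6.60 and 6.17 in the same wild-type mice. Here the genotypes lay over each other, with means of 6.53 ± 0.15 and 6.50 ± 0.20 and a log2 fold change of 0.03 (SE 0.11, 95% interval -0.21 to 0.26). Neither MOE430A probe set passed limma's test over all probe sets (adjusted p of 0.984 and 0.991). With the genotype means taken away, the MOE430B probe set had a Pearson r of 0.01 with 1417943_at and 0.36 with 1417944_at over 11 animals. Which stretch of the Gng4 transcript each probe set reads was not analysed here, so the probe sets could not be put in order along it.

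**Figure D1:**
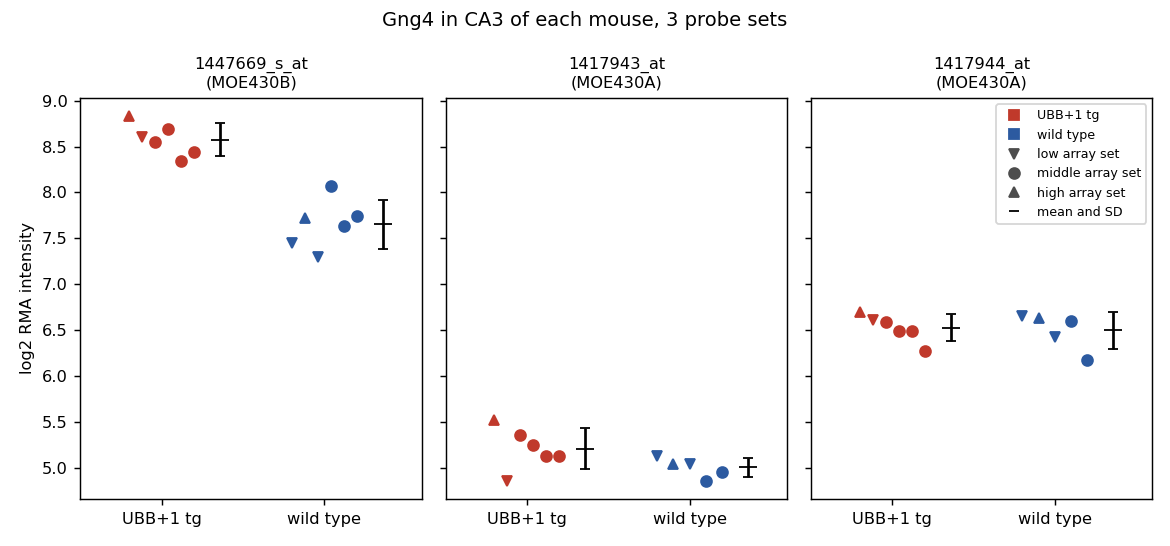
Log2 RMA intensity of Gng4 (y axis) in each mouse for its MOE430B probe set (left panel) and the MOE430A probe sets 1417943_at and 1417944_at, with UBB+1 tg in red, wild type in blue, point shape giving the array set, and mean and SD as bars. On MOE430B the UBB+1 tg mice span 8.34 to 8.83 and the wild-type mice 7.30 to 8.07, while the genotypes overlap for both MOE430A probe sets.

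The other members known from central neurons had overlapping genotypes. Gng3, an abundant neuronal subunit with a single probe set (1417428_at), was at 9.77, 10.48 and 11.30 in UBB+1 tg mice (lowest, median and highest), against 10.93, 11.16, 11.04, 10.60 and 9.95 in wild-type mice. Its groups overlapped over most of their range, and its log2 fold change was -0.21 (SE 0.31, 95% interval -0.89 to 0.46). Gng2, which is found in most tissues and is the usual partner in reconstituted beta-gamma pairs, had log2 fold changes of -0.15 (SE 0.13) and 0.26 (SE 0.27) on MOE430A and of 0.06 (SE 0.14) and 0.21 (SE 0.31) on MOE430B. The probe set with 0.26 (1418452_at) was dim, below the 25th percentile of its array. Gng7, best known from the striatum, where it works with Golf downstream of dopamine and adenosine receptors, was at 5.73, 6.17 and 6.61 in UBB+1 tg mice (lowest, median and highest) and at 6.00, 6.15 and 6.25 in wild-type mice. Its log2 fold change was 0.04 (SE 0.14), and the UBB+1 tg mice spread further than the wild-type mice on both sides.

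Gng8 and Gng13 are known from sensory cells. Gng8, a subunit of olfactory and vomeronasal neurons that is also made in the medial habenula, was at 4.79, 5.09 and 5.38 in UBB+1 tg mice (lowest, median and highest) and at 4.95, 5.09 and 5.96 in wild-type mice. The log2 fold change was -0.14 (SE 0.16), and the medians were nearly equal. Gng13, the partner of gustducin in taste cells and a subunit of retinal ON bipolar cells, was at 6.87, 8.18 and 9.18 on MOE430A in UBB+1 tg mice, against 8.72, 9.08, 8.87, 7.74 and 7.96 in wild-type mice. Its log2 fold change was -0.35, with an SE of 0.45, the largest of the family, and a 95% interval of -1.33 to 0.63. Without 1 animal at a time it ranged over -0.56 to -0.10, the last without UBB+1 tg mouse tg277. The Gng13 probe set of MOE430B was at -0.04 (SE 0.12), with UBB+1 tg mice from 6.66 to 7.12 and wild-type mice from 6.52 to 7.18. Between the arrays, the 2 Gng13 probe sets had a Pearson r of 0.63 over the 11 shared animals, given as a description since both come from the same RNA.

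Gng10, Gng11 and Gng12 are made in many cell types outside the nervous system. Gng10, with a log2 fold change of 0.10 (SE 0.20), was at 7.83 to 8.85 in UBB+1 tg mice and at 7.98 to 8.72 in wild-type mice. Gng11, which unlike most of the family carries a farnesyl group, was at 7.70, 8.09 and 8.78 in UBB+1 tg mice (lowest, median and highest) and at 8.06, 8.32 and 8.92 in wild-type mice. Only 1 of the 6 UBB+1 tg mice lay above the wild-type mean of Gng11, and the log2 fold change was -0.24 (SE 0.20, 95% interval -0.68 to 0.21). Gng12, a substrate of protein kinase C, had log2 fold changes of -0.18 (SE 0.18) for 1421947_at and 0.48 (SE 0.43, 95% interval -0.45 to 1.42) for 1455089_at. Without 1 animal at a time the value of 1455089_at ranged over 0.23 to 0.72, the first without UBB+1 tg mouse tg277.

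The Gng12 probe sets ran against each other from mouse to mouse as well as between genotypes. In UBB+1 tg mouse tg277, 1455089_at was at 9.01 and 1421947_at at 6.11, whereas in UBB+1 tg mouse tg270 they were at 6.54 and 6.94. Over the 11 animals their Pearson r was -0.63. For Gng2, 1418451_at had a Pearson r of -0.52, -0.59 and -0.64 with the other 3 probe sets of the gene over the same animals, and those 3 had r of 0.28 to 0.59 among themselves. These are descriptions over animals that also differ in array set, and probe sets of a gene were not averaged for the values above.

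All 15 probe sets other than that of Gng4 on MOE430B had overlapping genotypes and 95% intervals that hold 0, with log2 fold changes of -0.35 to 0.48. In limma, 0 of 10 family probe sets on MOE430A and 0 of 6 on MOE430B passed the false discovery rate of 10%. At an unadjusted p under 0.05 there were 0 of 10 above and 0 of 10 below on MOE430A (1.91% and 1.57% of all probe sets), and on MOE430B 1 of 6 above and 0 of 6 below (1.52% and 1.53%), the 1 being the Gng4 probe set that the choice rests on. On MOE430A, 0 of 10 had all UBB+1 tg mice above all wild-type mice (0.115% of all probe sets) and 0 of 10 had them all below (0.119%). The adjusted p was 0.984 to 0.986 for the family without Gng4 on MOE430A and 1.00 on MOE430B. On MOE430A, 5 of 10 probe sets had a log2 fold change above 0 (51.7% of all probe sets) with a median of -0.06 (0.00 over all), and on MOE430B 4 of 6 (47.6% of all) with a median of 0.05 (-0.01 over all). The median size without regard to sign was 0.21 for the family and 0.09 for all probe sets on MOE430A, and 0.10 and 0.07 on MOE430B.

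**Figure D2:**
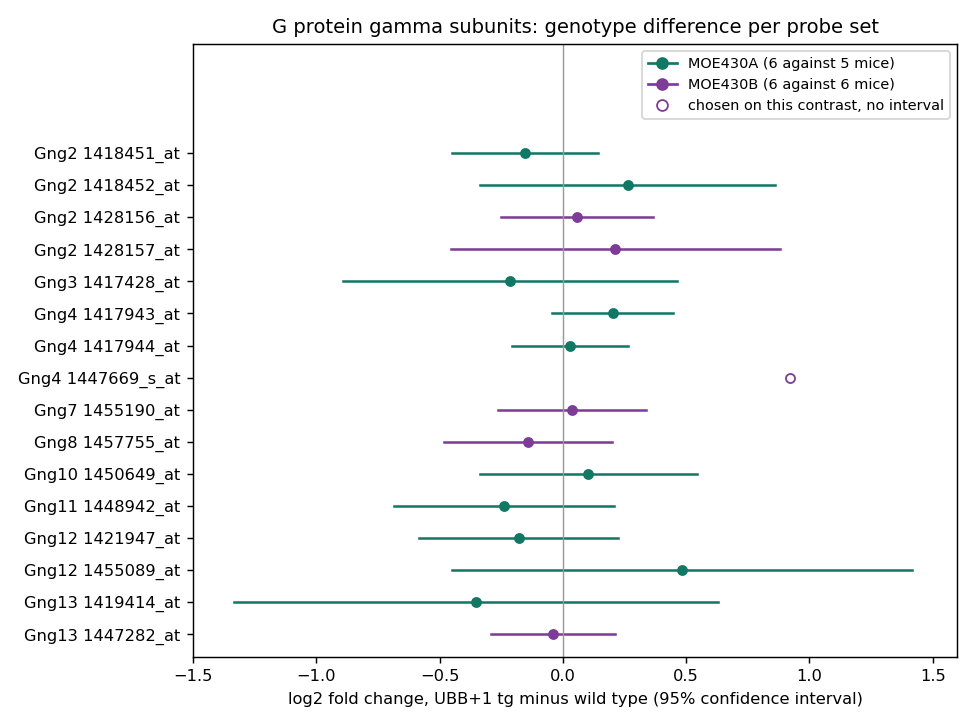
Log2 fold change of UBB+1 tg over wild type (x axis) for each gamma subunit probe set (rows), with 95% intervals as lines, MOE430A in green and MOE430B in purple, and the open point marking the probe set chosen on this contrast, drawn without an interval. The 15 probe sets with an interval lie between -0.35 and 0.48 and all their intervals cross 0, and the open point lies at 0.92.

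On MOE430A several members stood apart by array set in mice of both genotypes. Gng3 was at 9.77 to 10.60 in the 6 mice of the middle set, against 10.93 to 11.30 in the low set and 11.14 to 11.16 in the high set. Gng13 1419414_at was at 6.87 to 8.65 in the middle set, against 8.72 to 9.18 and 9.03 to 9.08. Gng3 and Gng13 were lowest in the middle set, which holds 4 of the 6 UBB+1 tg mice and 2 of the 5 wild-type mice. Gng2 behaved likewise by 1418451_at, at 7.79 to 8.18 in the middle set, against 8.25 to 8.46 and 8.44 to 8.49. By its dim probe set 1418452_at it ran the other way, at 4.46 to 5.67 in the middle set, against at most 4.17 and 4.32 in the low and high sets. In all, 4 of 10 family probe sets on MOE430A had a middle set that did not overlap the low and high sets (7.02% of all probe sets), and 0 of 6 on MOE430B (3.39%).

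Differences between array sets were there in wild-type mice alone as well, some with the sign of the genotype difference and some against it. Between their middle and low sets (2 mice each), Gng13 1419414_at differed by -0.95, Gng3 by -0.71, Gng11 by -0.39, Gng12 1455089_at by 0.65 and Gng10 by 0.61. Gng2 1418451_at and 1418452_at differed by -0.11 and 0.55. Against the sign of the genotype difference ran Gng12 1421947_at (0.20), Gng4 1417943_at (-0.18) and Gng4 1417944_at (-0.16). Their genotype differences were -0.18, 0.20 and 0.03. In the fit blocked by array set, the genotype difference was -0.02 for Gng13 1419414_at, 0.02 for Gng3, -0.12 for Gng11, 0.27 for Gng12 1455089_at and 0.01 for Gng10. Gng12 1421947_at was at -0.13 and Gng4 1417943_at at 0.20 in that fit. Other members lay as far or further from 0 in that fit, with 0.09 for Gng7, 0.07 for Gng4 1417944_at and 0.06 for Gng2 1428156_at, against 0.04, 0.03 and 0.06 without the block. With the 3'-5' signal difference in the fit instead of the block, Gng13 1419414_at was at -0.34, Gng3 at -0.20 and Gng11 at -0.23. Gng12 1455089_at was then at 0.58 and Gng10 at 0.01. The part of RNA reach in the members' values was not tested further.

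**Figure D3:**
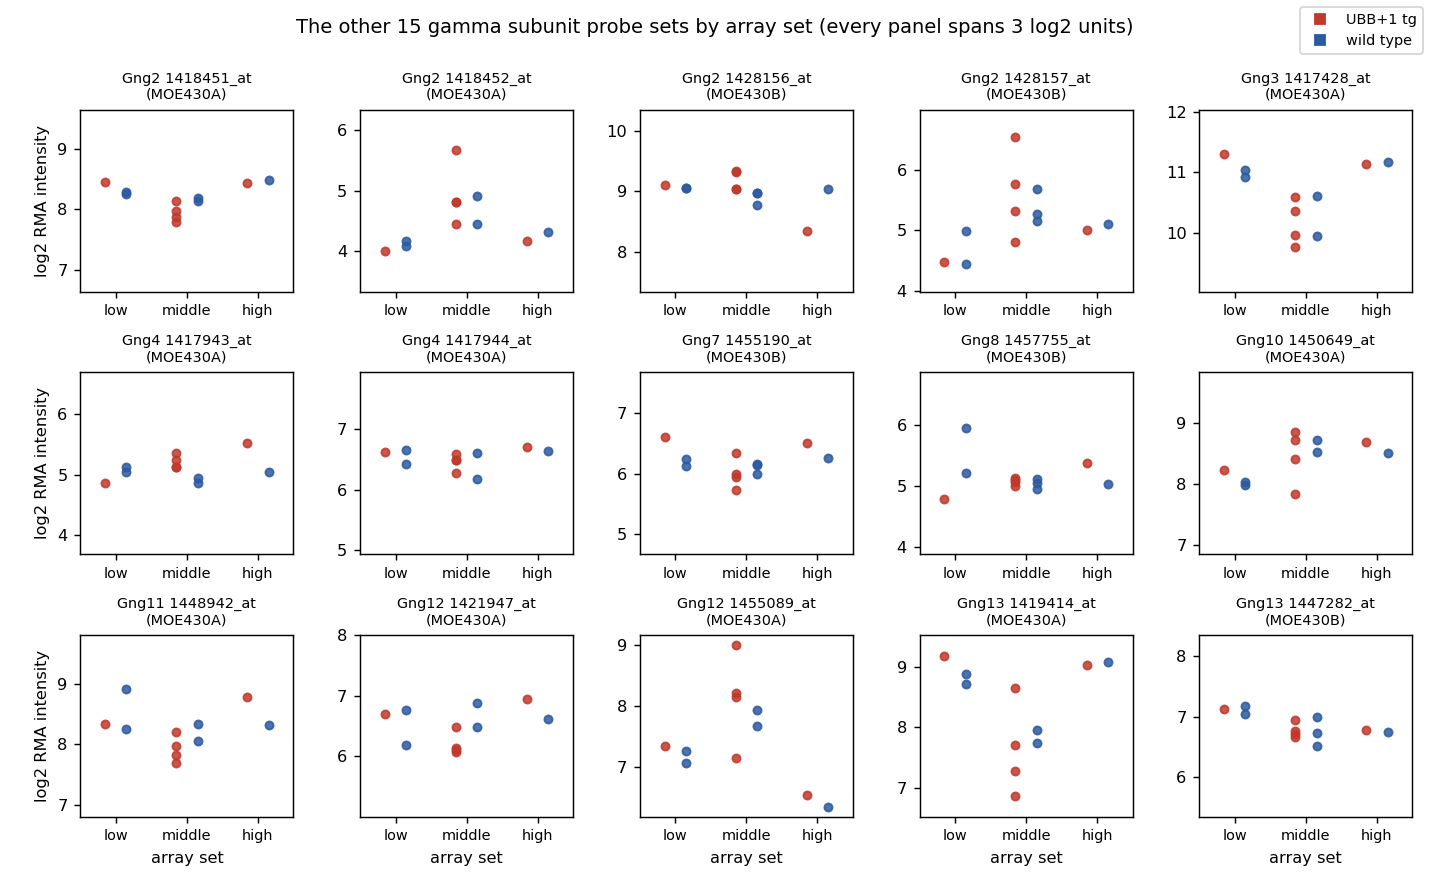
Log2 RMA intensity (y axis, 3 units high in every panel) of the 15 gamma subunit probe sets other than that of Gng4 on MOE430B in the low, middle and high array sets (x axis), each point 1 mouse, UBB+1 tg in red left of wild type in blue. Gng3 (9.77 to 10.60) and Gng13 1419414_at (6.87 to 8.65) are below the other sets in the middle set in both genotypes.

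The MOE430B probe set of Gng4 shared its pattern over the 12 MOE430B arrays most closely with Vxn (Pearson r 0.865), Tafa2 (0.863) and Ppm1e (0.860), the highest of all singly annotated genes. Each of these also had the higher mean in UBB+1 tg mice, with log2 fold changes of 0.70 (SE 0.18), 0.59 (SE 0.14) and 0.49 (SE 0.14), so that the likeness includes the genotype. After the genotype means were taken away, the closest were Dgkd, a diacylglycerol kinase (r 0.895), Nr3c2, the mineralocorticoid receptor (0.873), and Whrn, a scaffold protein (0.868), with log2 fold changes of 0.09 (SE 0.09), 0.36 (SE 0.13) and 0.17 (SE 0.11). The other 5 family probe sets of MOE430B, those of Gng2, Gng7, Gng8 and Gng13, had r of -0.32 (Gng8) to 0.20 (Gng2 1428157_at) with Gng4 over the 12 arrays. Within genotypes their r was -0.56 (Gng2 1428156_at) to 0.30 (Gng7). The r values of the 6 genes outside the family are the top of a search over all genes, and all of them describe only these arrays, which share a protocol and fall into array sets.

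The partners and targets of the gamma subunits were read with 1 probe set per gene and array. On MOE430A, 78 genes of the pathway were measured and 0 passed the false discovery rate in limma, with 2 above and 1 below at an unadjusted p under 0.05 (2.2% and 1.69% of 12392 genes on the array, 3.89% in all), and 52 had a log2 fold change above 0 (52.4% of all genes). On MOE430B, 35 genes were measured, 0 passed, 2 were above and 2 below at an unadjusted p under 0.05 (1.63% and 1.7% of 9607 genes, 3.33% in all), and 18 were above 0 (46.5%). The median log2 fold change was 0.05 on MOE430A and 0.03 on MOE430B, against 0.01 and -0.01 over all genes. Counts of mice above or below the wild-type mean are given below as descriptions. The share of all genes with such counts was not computed. The pathway genes named below are those with the smallest unadjusted p of their list. Their adjusted p in limma was at least 0.984 on MOE430A and 1.00 on MOE430B.

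Among the subunits that share the heterotrimer, Gna13, an alpha subunit of the G12 class that acts on RhoA, had the smallest p of 14 alpha subunits on MOE430A, with a log2 fold change of 0.42 (SE 0.16), and on MOE430B it was at 0.23 (SE 0.37). Gnb5, the beta subunit that pairs with R7 RGS proteins and not with the usual gamma subunits, was at -0.20 (SE 0.26) on MOE430A and -0.07 (SE 0.07) on MOE430B, and at -0.39 (SE 0.11) on MOE430A when blocked by array set. Gnb2 was at -0.56 (SE 0.82), at -0.66 (SE 0.26) when blocked by array set, at -0.06 with the 3'-5' signal difference in the fit and at 0.12 without UBB+1 tg mouse tg270. The transducin gamma subunits of photoreceptors, Gngt1 and Gngt2, were at 0.01 (SE 0.08) and 0.03 (SE 0.10). The Gngt2 probe set was dim, averaging 4.17 in UBB+1 tg mice and 4.14 in wild-type mice on MOE430B.

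Of the enzymes that prepare the gamma C terminus, Icmt and Rce1 were below the wild-type mean in 6 of 6 UBB+1 tg mice. Icmt, the carboxyl methyltransferase, was at 7.98 ± 0.19 in UBB+1 tg mice and 8.22 ± 0.19 in wild-type mice, a log2 fold change of -0.25 (SE 0.12). Rce1, the protease that takes off the last residues, was at 7.59 ± 0.15 and 7.91 ± 0.43, a log2 fold change of -0.32 (SE 0.17). Neither had an unadjusted p under 0.05, and 3 of the 5 genes of this list on MOE430A were above 0.

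Of the beta-gamma targets, the GIRK channel subunits Kcnj3 and Kcnj6 had log2 fold changes of -0.15 (SE 0.14) and 0.11 (SE 0.11) on MOE430A, and on MOE430B Kcnj3 averaged 7.77 in UBB+1 tg mice and 7.78 in wild-type mice. On MOE430A, Kcnj3 was also below the wild-type mean in 6 of 6 UBB+1 tg mice. The list of effector enzymes is not limited to beta-gamma targets. In it, the phospholipases Plcb4 and Plcb1, which cleave phosphatidylinositol bisphosphate, were above the wild-type mean in 6 of 6 UBB+1 tg mice on MOE430B. Plcb4 was at 7.15 ± 0.37 in UBB+1 tg mice and 6.43 ± 0.62 in wild-type mice, a log2 fold change of 0.72 (SE 0.26). Plcb1 was at 11.14 ± 0.24 and 10.59 ± 0.62, a log2 fold change of 0.55 (SE 0.24). On MOE430A other probe sets of these genes were at 0.07 (SE 0.07) and 0.12 (SE 0.45). Both genes account for the 2 effector enzymes above at an unadjusted p under 0.05 on MOE430B, among 6 measured (1.63% of all genes). On MOE430A, 0 of 12 effector enzymes were above at that threshold (2.2% of all genes).

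The proteins that end or tune the signal had values on both sides of 0. Rgs4, which speeds GTP hydrolysis by Gi and Gq alpha subunits, was at 0.39 (SE 0.17) on MOE430A. Of the RGS proteins, 12 of 15 were above 0 on MOE430A (52.4% of all genes) and 2 of 7 on MOE430B (46.5%). Rgs20 was at -0.57 (SE 0.25) on MOE430B and at 0.19 (SE 0.10) by a dim probe set of MOE430A. Grk5, a receptor kinase, was at 3.72 ± 0.06 in UBB+1 tg mice and 3.93 ± 0.10 in wild-type mice on MOE430B, dim values with a log2 fold change of -0.21 (SE 0.06), and at 0.17 (SE 0.12) by a probe set of MOE430A that was dim as well. Arrb2, beta-arrestin 2, was at -0.46 (SE 0.24). Among 10 Gi/o-coupled receptors on MOE430A, Adra2c, the alpha-2C adrenergic receptor, was at -0.25 (SE 0.11) and below the wild-type mean in 6 of 6 UBB+1 tg mice, with -0.15 (SE 0.12) on MOE430B, and Npy2r, the presynaptic neuropeptide Y receptor, was at 0.50 (SE 0.28).

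**Figure D4:**
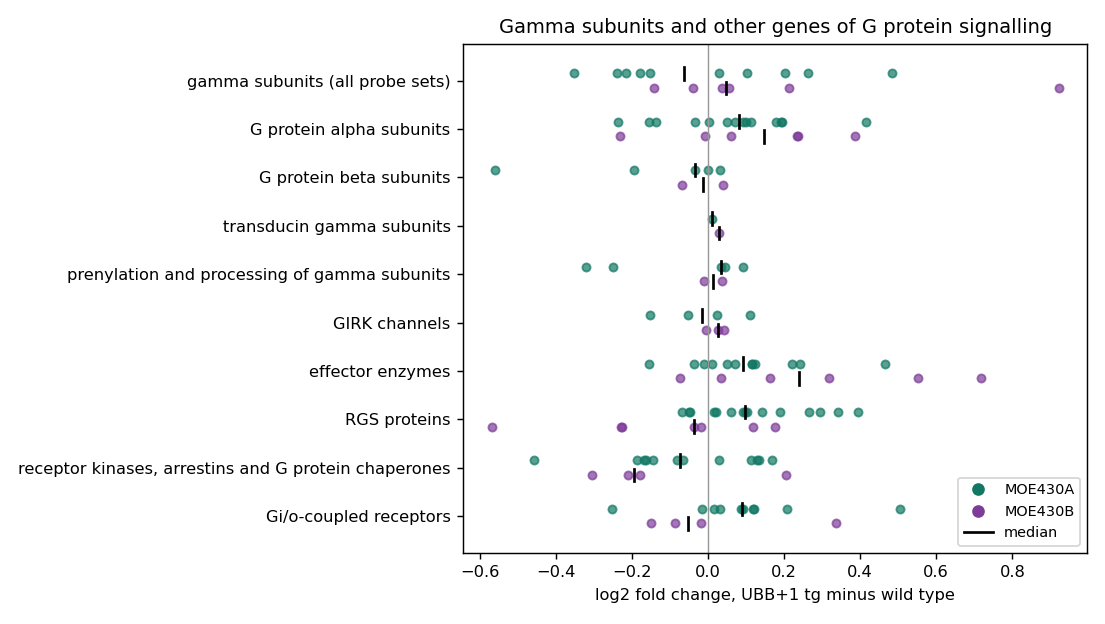
Log2 fold change of UBB+1 tg over wild type (x axis) for the gamma subunit probe sets and of 9 lists of other genes of G protein signalling (rows, 1 point per gene), MOE430A in green and MOE430B in purple, with the median of each as a black bar. Gng4 on MOE430B lies at 0.92, and the other points lie between -0.57 and 0.72.

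Marker genes of hippocampal fields, the CA3 markers among them, and of cell types were read beside the members. In bulk tissue fewer cells of a type and less RNA per cell cannot be told apart. Of 46 marker genes on MOE430A and 20 on MOE430B, 0 passed the false discovery rate in limma, and 25 of 46 (52.4% of all genes) and 8 of 20 (46.5%) were above 0. At an unadjusted p under 0.05 there was 1 above and 1 below on MOE430A (2.2% and 1.69% of all genes) and 0 on MOE430B. The 1 below was Nrgn, a postsynaptic calmodulin-binding protein of glutamatergic neurons, at -0.34 (SE 0.13). Nrgn was below the wild-type mean in 6 of 6 UBB+1 tg mice, and the neuronal vesicular glutamate transporter Slc17a7 was at -0.52 (SE 0.32) on MOE430B. Of the glutamatergic markers, 2 of 4 were above 0 on MOE430A and 0 of 3 on MOE430B. The 2 above 0 were Snap25 at 0.37 (SE 0.24) and Neurod6 at 0.22 (SE 0.20). Markers of other cells included Sst, of interneurons, at -0.82 (SE 0.44), C1qc, of microglia, at -0.30 (SE 0.20), and Ttr, of choroid plexus, at -1.44 (SE 0.95) on MOE430B and -0.14 (SE 0.28) on MOE430A. Their lists held values on both sides of 0, with 4 of 8 interneuron markers and 2 of 6 microglia markers above 0 on MOE430A. Among these were Gad1 at 0.30 (SE 0.26) and Csf1r at 0.22 (SE 0.30). Of the choroid plexus markers, 1 of 2 was above 0 on each array. The 1 marker above at an unadjusted p under 0.05 on MOE430A was Cacng5, of CA2, at 0.71 (SE 0.21). The other CA2 markers of MOE430A were Pcp4 at 0.33 (SE 0.62) and Rgs14 at 0.27 (SE 0.28). The summed linear level of these 3 CA2 markers was 606 to 2654 in UBB+1 tg mice and 540 to 1220 in wild-type mice, and the CA2 marker on MOE430B, Amigo2, was at -0.07. The marker genes named were picked after their values were seen. The part of other fields and cell types in the Gng4 values was not tested.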

How the data were processed

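The intensities are the values the authors deposited, computed with RMA (version not given in the sources used here) separately for each kind of array, as linear whole numbers for MOE430A, of which log2 was taken here, and as log2 values for MOE430B. The number of arrays limits the precision. Groups and animal numbers came from the sample labels, no 2 columns were identical, and each animal is 1 replicate.

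MOE430A has 22690 probe sets and MOE430B 22575. The 64 controls of each were left out, as was 1 MOE430A probe set that the study's methods exclude. By the array annotation 20379 and 14661 probe sets name 1 gene. Chromosomes are those of RefSeq, used for names only. Each array kind was fitted with limma 3.58.1 (lmFit and eBayes, R 4.3.3), UBB+1 tg minus wild type, and p-values were adjusted by Benjamini-Hochberg over the array. The fit was tried on simulated data with independent normal noise and no array sets, which checks the code and not the effect of those sets. Array sets are the 3 groups of a complete-linkage tree of the arrays, with 1 minus Pearson r as distance.

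All probe sets of the members are named, up to 2 genes with the smallest p per pathway list, and the 3 genes most like Gng4 overall and within genotypes. The pathway lists use the brightest probe set per gene and array. The members, lists and tests were chosen with earlier results of these data known.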

Additional observations from a re-analysis of the deposited data

Results flagged for a closer look

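Of the 32 groups of animals examined, 1 for each genotype and family probe set, 3 held a mouse far from the rest of its group by Dixon's criterion, which chance meets in about 1 in 20 groups. Gng2 1428156_at on MOE430B was at 8.35 in UBB+1 tg mouse tg270, against 9.03 to 9.34 in the other UBB+1 tg mice. The same probe set was at 8.77 in wild-type mouse wt331, against 8.96 to 9.06 in the other wild-type mice. Gng8 1457755_at was at 5.96 in wild-type mouse wt287, against 4.95 to 5.21 in the other wild-type mice.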

How the results depend on the processing

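The Gng4 log2 fold change on MOE430B was 0.85 to 1.01 over 22 other settings, a description of its size only. Since the genotypes did not overlap, leaving out 1 animal could not change its sign. The count of family probe sets past the false discovery rate on MOE430B was 0, and 1 (Gng4) when the 3'-5' difference was a covariate and 1 (Gng4) with the probe sets of a gene averaged. Without 1 animal it was 0 to 1, and was 1 only without wild-type mouse wt291, the highest of its group for Gng4. Gng4 was chosen by its p on this contrast, so its range and these counts are no evidence for it, and the cause was not tested. On MOE430A the count was 0 in all 21 settings. On MOE430A the family median ranged over -0.17 to 0.06, and on MOE430B over -0.01 to 0.08. Of the 16 family probe sets, 9 kept their sign in every setting and 7 did not (4 with all animals kept, 6 without 1 animal), and 0 of 322 values moved by over 1 SD. Of 32 probe sets of the other named genes, 5 took the opposite sign in some setting. A floor at the 25th percentile put Rgs20 on MOE430A and Grk5 on both arrays at 0. No paired analysis was possible because the genotypes share no animal numbers. With 6 against 5 or 6 mice, the widest intervals (Gng12 1455089_at and Gng13 1419414_at) reach 1.42 and -1.33, so differences of that size lie within them.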
